A study of Homo sapiens with 17 samples.

Results

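The mRNAs of 10 glycolytic enzymes were followed through acRIP-seq of HEK293T, a line derived from human embryonic kidney. They were chosen by their names in the count table, GAPDH, ALDOA, TPI1, PGK1, PGAM1, ENO1, LDHA, LDHB, HK2 and GPI, and all 10 were found among its 23368 genes and were tested in each of the 9 comparisons. In acRIP-seq, poly(A) RNA is pulled down with an antibody against N4-acetylcytidine (ac4C), an acetylated cytidine, and sequenced beside the starting RNA. The cells were labelled WT, or siTDP43 after siRNA against TARDBP, the gene of the RNA-binding protein TDP43. From each, libraries were made of input poly(A) RNA, of the anti-ac4C pull-down (IP) and of a mock pull-down with non-specific immunoglobulin (IgG). The 17 libraries fell into 6 groups, with 2 libraries of WT IgG and 3 of every other group. The labels give the WT cells no control siRNA, so transfection, the loss of TDP43 and any batch cannot be told apart. The labels do not say whether replicates came from separate cultures, so the p-values measure the spread between libraries, which may be technical.

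Glycolysis splits glucose into pyruvate in the cytosol. Hexokinase traps glucose as its phosphate, isomerase and aldolase carry it to a pair of triose phosphates, and a dehydrogenase, kinases, a mutase and enolase turn these into pyruvate with a net gain of ATP. Lactate dehydrogenase converts pyruvate to lactate and back, which regenerates the NAD that the pathway consumes. Proliferating cell lines are known for high glycolytic flux, and several of these mRNAs, GAPDH above all, are widely used as reference genes.

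Some sequences bear on how these mRNAs are read. The first pair are the study's GAPDH primers, shown because GAPDH served as a reference for relative amounts in the study and is itself a member here. The study also measured GAPDH as an mRNA of low acetylation, by anti-ac4C pull-down and qPCR relative to IgG. It reported that ac4C accumulated in GAPDH after TDP43 depletion. The forward primer crosses an exon junction (hg19 chr12:6645954-6646103, plus strand), and the reverse primer matches the antisense strand of one exon (chr12:6646347-6646369).
hGAPDH-F: ggagcgagatccctccaaaat
hGAPDH-R: ggctgttgtcatacttctcatgg
The next shows the only match to UCCCAGCU, the motif that the study assigned to ac4C, in the exons of the members on the sense strand. It lies in HK2 (chr2:75061579-75061608, plus strand, annotated as UTR), with the motif in capitals and T for U.
HK2 window: gccgtccggacTCCCAGCTcccggcccggc
Of all genes in the table, 16.7% held the motif in their exons, as did 34.2% of genes of like length to HK2. UGUGCG, a motif bound by TDP43, also matched only HK2 among the members, at 2 positions, and was held by 25.9% of all genes and 43.6% of genes of like length. A match is a string of letters and not a measured site.

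Total counts ranged from 24542434 to 36583436 in the inputs, from 8610070 to 21066215 in IP and from 3013989 to 9466855 in IgG. TARDBP was at 149.7 to 157 CPM (counts scaled to the effective library size) in WT input and at 98.64 to 106 CPM in siTDP43 input, 67.2% of WT (log2 fold change -0.57, SE 0.045, edgeR adjusted p 6.55e-13). Of 6 genes listed for HEK293T cells, VIM, NEFL and NEFM were above 1 CPM in both inputs, while PAX2, LHX1 and SALL4 were below it. The summed level of these 6 genes was 900.9 to 937.8 CPM in WT input and 474.1 to 501.1 CPM in siTDP43 input. Most of it was VIM, at 787.5 CPM on average in WT and 262.3 CPM in siTDP43, while NEFL went the other way, from 65.2 to 186 CPM. Of 12 markers of other cell types, 8 were below 1 CPM in both inputs, with PTPRC, KRT5, HBB and PECAM1 at 0. The summed level of the 12 was 14.25 to 15.54 CPM in WT input and 9.15 to 10.03 CPM in siTDP43 input, and its part in the results was not tested.

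The 10 mRNAs took 2.10 to 2.12% of all counts in WT input and 2.29 to 2.35% in siTDP43 input. In the pull-downs the share was lower, at 0.727 to 0.803% in WT IP, 1.03 to 1.04% in WT IgG, 1.11 to 1.16% in siTDP43 IP and 1.004 to 1.02% in siTDP43 IgG. Within each genotype no IP or IgG library reached the share of an input library.

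Levels were compared between genes as CPM per kilobase of merged exon. In WT input GAPDH was highest, at 3870 ± 35.5 (SD, n = 3), followed by TPI1 at 1316 ± 1.68, LDHB at 1195 ± 6.49, ENO1 at 801 ± 14.0, ALDOA at 751 ± 8.30 and LDHA at 723 ± 9.52. PGK1 at 492 ± 6.08, PGAM1 at 207 ± 4.52, GPI at 108 ± 2.60 and HK2 at 3.10 ± 0.173 CPM per kb came after these, and no neighbours in this order overlapped between libraries. HK2 was thus the scarcest member, and the hexokinase HK1 was at 15.4 ± 0.107 CPM per kb in the same libraries. In siTDP43 input GAPDH still led, at 2857 ± 67.7 CPM per kb, and LDHB at 2152 ± 52.3 and TPI1 at 1911 ± 33.9 followed it. In siTDP43 IP the leading member was LDHB, at 2034 ± 121 CPM per kb, above GAPDH at 1747 ± 31.2. Neighbours whose libraries overlapped were LDHB and ENO1 in WT IP, ENO1 and LDHB as well as HK2 and PGAM1 in WT IgG, and ALDOA and LDHA in siTDP43 IP.

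**Figure D1:**
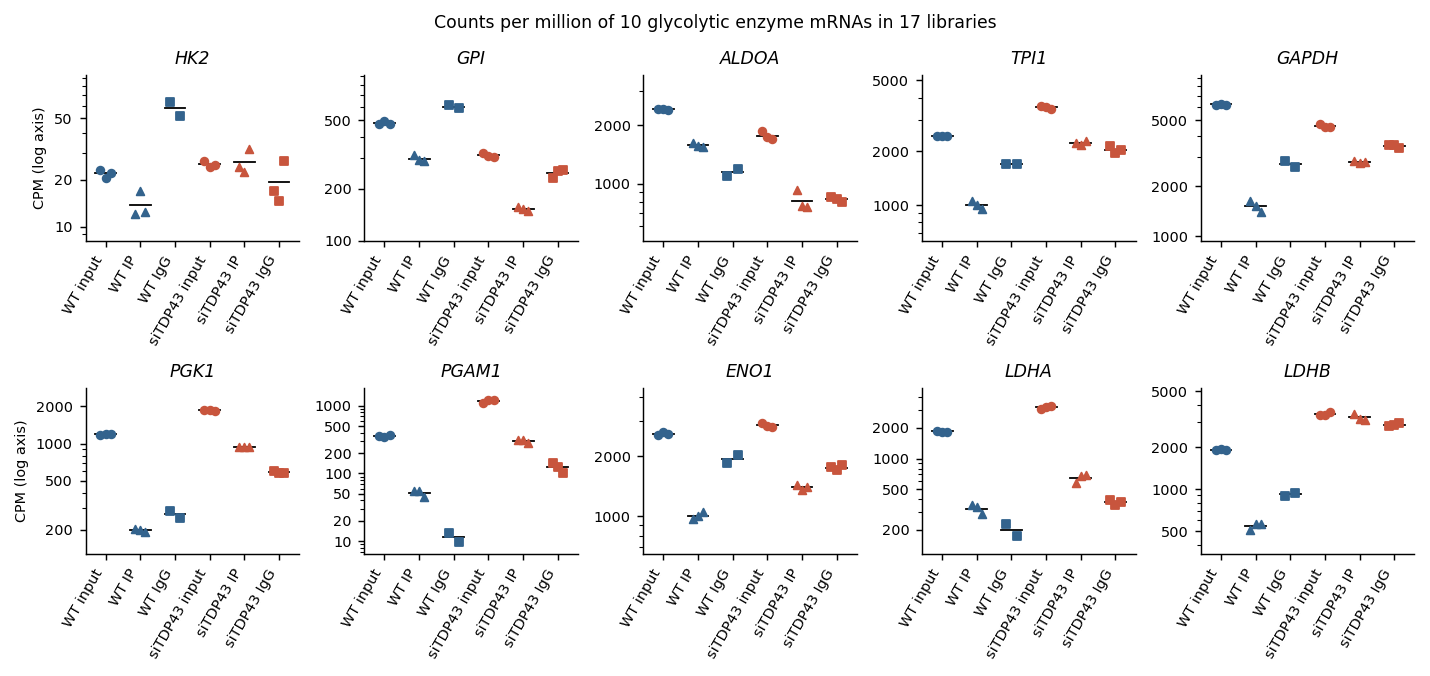
CPM (log axis, each panel with its own range) of the 10 mRNAs in the 17 libraries, with a point per library, a line at each group mean, circles for input, triangles for IP and squares for IgG, blue for WT and red for siTDP43. PGAM1 ran from 9.67 CPM in a WT IgG library to 1226 CPM in a siTDP43 input library, and LDHB in siTDP43 stayed between 2841 and 3538 CPM in all 9 libraries.

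The inputs were compared to ask how the abundance of these mRNAs differed between siTDP43 and WT cells. HK2, TPI1, PGK1, PGAM1, ENO1 and both lactate dehydrogenases rose, led by PGAM1, which was 3.34-fold higher. GPI, ALDOA and GAPDH fell, although ALDOA turned with a correction for GC content. By edgeR's quasi-likelihood test (adjusted p under 0.05), 7 of the 10 members were higher, against 38.6% of the 14036 genes tested, and 3 were lower, against 40.6%. For all 10 the siTDP43 libraries did not overlap the WT libraries, but such separation was not counted over all genes. The median log2 fold change was 0.38 for the members and -0.05 for all genes tested. CPM are relative to the library. In bulk RNA a difference in the share of cells that hold an mRNA and one in its amount per cell cannot be told apart.

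The entry steps did not move together. HK2 (chr2:75059782-75120481), which phosphorylates glucose, was at 23.1, 20.7 and 22.2 CPM in WT input and at 26.6, 24.2 and 24.9 CPM in siTDP43 input. Its log2 fold change of 0.21 (SE 0.081, edgeR adjusted p 0.0214) was lost in several settings. Without siTDP43 input replicate 1 the adjusted p was 0.0682, without WT input replicate 2 it was 0.125, and scaling by total count gave 0.199. GPI (chr19:34855645-34893318), the isomerase that makes fructose phosphate, was at 478, 498 and 477 CPM in WT input and at 322, 312 and 306 CPM in siTDP43 input. GPI fell by 0.62 on the log2 scale (SE 0.038, adjusted p 1.59e-15). ALDOA (chr16:30064411-30081741), the aldolase that splits the hexose, was at 2431, 2439 and 2389 CPM in WT input and at 1874, 1732 and 1706 CPM in siTDP43 input. Every siTDP43 library lay below every WT library for both genes. ALDOA had a log2 fold change of -0.45 (SE 0.036, adjusted p 1.27e-12), but its exons had the highest GC content of the members, 61.9%, and with a GC trend removed from each library the value turned to 0.18.

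The triose steps ran in opposite directions around GAPDH. TPI1 (chr12:6976584-6980110), which interconverts the triose phosphates, was at 2440, 2446 and 2442 CPM in WT input and at 3599, 3566 and 3477 CPM in siTDP43 input, a log2 fold change of 0.54 (SE 0.032, adjusted p 6.45e-16). GAPDH (chr12:6643585-6647537), which oxidises glyceraldehyde phosphate, was at 6211, 6296 and 6187 CPM in WT input and at 4725, 4547 and 4527 CPM in siTDP43 input. GAPDH fell by 0.43 (SE 0.031, adjusted p 9.86e-14), to 74.1% of WT. The reference gene was thus lower in all 3 siTDP43 inputs than in any WT input, and its log2 fold change ran from -0.52 to -0.14 over the other processing settings. PGK1 (chrX:77359666-77382324), the kinase of the ATP-forming step, rose from 1176, 1204 and 1199 CPM to 1885, 1863 and 1823 CPM, a log2 fold change of 0.64 (SE 0.034, adjusted p 3.10e-17).

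All members of the last steps rose, by unequal amounts. PGAM1 (chr10:99186027-99193198), the mutase that shifts the phosphate group, was at 352, 349.7 and 364 CPM in WT input and at 1106, 1226 and 1214 CPM in siTDP43 input. Its log2 fold change was 1.74 (SE 0.041, adjusted p 3.07e-26), and it was the only member to change by more than 2-fold, where 15.5% of all genes tested were higher by that much. ENO1 (chr1:8921059-8939151, minus strand), the enolase, rose by 0.15 (SE 0.033, adjusted p 0.000166) from 2565, 2655 and 2599 CPM to 2948, 2857 and 2825 CPM. The groups did not overlap, but with scaling by total count the adjusted p was 0.091. LDHA (chr11:18415936-18429765), the muscle-type subunit of lactate dehydrogenase, rose from 1872, 1824 and 1843 CPM to 3051, 3181 and 3301 CPM, a log2 fold change of 0.79 (SE 0.034, adjusted p 2.30e-19). LDHB (chr12:21788275-21810789, minus strand), the heart-type subunit, rose from 1904, 1924 and 1909 CPM to 3413, 3379 and 3538 CPM, a log2 fold change of 0.85 (SE 0.033, adjusted p 7.66e-21). Both subunits were thus higher in every siTDP43 input library than in any WT library.

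**Figure D2:**
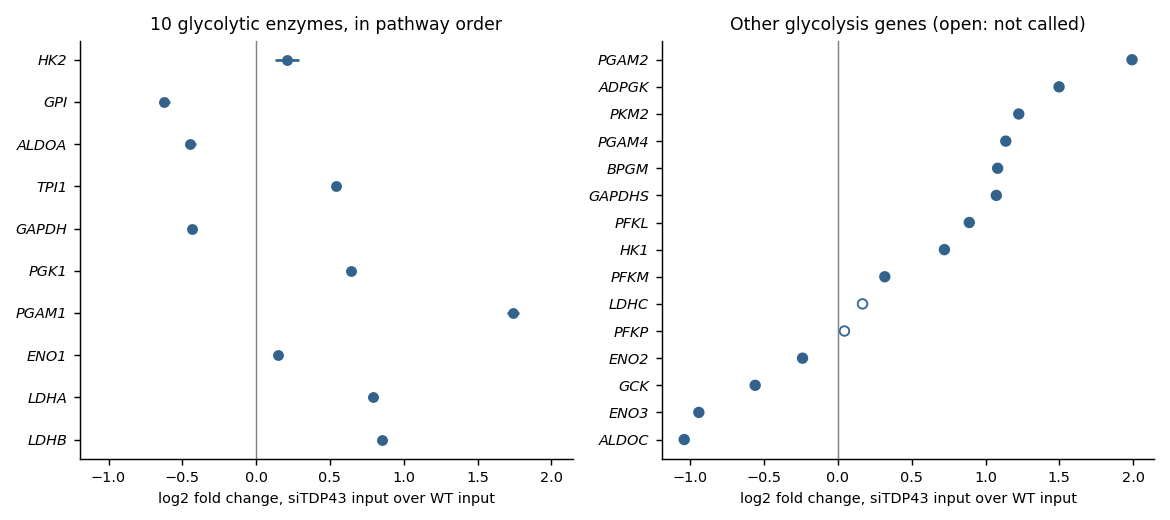
Log2 fold change of siTDP43 input over WT input, for the 10 members in pathway order with bars of 1 SE (left) and for the other glycolysis genes tested, ordered by value and drawn without error bars (right). Filled points passed the test; 7 members lay above 0 and 3 below, and PKM2, the pyruvate kinase gene, was at 1.22.

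The isoenzymes and steps outside the members were looked at for the same question. Of 21 other glycolysis genes, 15 passed the filter on low counts. Of these 9 rose, 4 fell and 2 did not pass the test, with a median log2 fold change of 0.72. Over all genes tested 38.6% rose and 40.6% fell, with a median of -0.05. ADPGK, an ADP-dependent glucokinase, had a log2 fold change of 1.50 (SE 0.057, edgeR adjusted p 7.38e-21) and PKM2, the table's name for the pyruvate kinase gene, had 1.22 (SE 0.039, adjusted p 5.80e-23). BPGM, which makes bisphosphoglycerate, had 1.08 (SE 0.049, adjusted p 8.30e-19). ALDOC, the brain-type aldolase, had -1.04 (SE 0.071, adjusted p 2.01e-14), and ENO2, the neuronal enolase, had -0.24 (SE 0.059, adjusted p 0.000477). The aldolases ALDOA and ALDOC thus both fell by this test, ALDOA turning with the GC trend removed, while the enolases ENO1 and ENO2 differed in direction. Of 15 genes of glucose and lactate transport and of the control of glycolysis, all were tested. Of these 10 rose and 3 fell, to be read against the same 38.6% and 40.6%. Those that rose included PFKFB3, which makes an activator of phosphofructokinase, at 1.37 (SE 0.081, edgeR adjusted p 5.12e-16), and C12orf5 (TIGAR) at 1.35 (SE 0.056, adjusted p 7.50e-20). PDK1, a kinase that restrains pyruvate dehydrogenase, rose by 1.10 (SE 0.075, adjusted p 2.18e-14). Among those that fell were PDK2, another kinase of that family, at -0.50 (SE 0.073, adjusted p 3.14e-07), and SLC2A3, a glucose transporter, at -0.70 (SE 0.21, adjusted p 0.00281).

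The WT pull-down was compared with its input to ask which of these mRNAs were enriched with the anti-ac4C antibody. None was: by edgeR's test all 10 were lower in IP than in input, where 42.1% of the 14751 genes tested were lower and 42.3% higher. For 7 members the difference was more than 2-fold, against 27.3% of genes. The median log2 fold change was -1.58 for the members and 0.01 for all genes tested. In no member did the IP and input libraries overlap, and such separation was not counted over all genes. The lowest values were those of PGAM1 at -2.78 (SE 0.074), PGK1 at -2.58 (SE 0.053), LDHA at -2.51 (SE 0.075) and GAPDH at -2.03 (SE 0.051), with adjusted p from 1.27e-22 to 1.61e-19. The members nearest to 0 were ALDOA at -0.61 (SE 0.045), HK2 at -0.66 (SE 0.12) and GPI at -0.69 (SE 0.049). Removing the GC trend moved ALDOA to -1.47 and GAPDH to -2.41. The other glycolysis genes had a median of -0.57, with 2 higher and 10 lower of 15 tested. ENO2 at 0.26 (SE 0.074, adjusted p 0.00237) and ENO3, the muscle enolase, at 1.23 (SE 0.19, adjusted p 3.29e-06) were the 2 that were higher.

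The control pull-down was also poor in most of these mRNAs. In WT IgG over input, 8 members were lower, against 47.8% of genes, and 2 were higher, against 35.5%. PGAM1 was at 13.1 and 9.67 CPM in WT IgG, from 135 and 94 counts, and at 55.0, 55.0 and 44.3 CPM in WT IP. The IP libraries lay between the input and the IgG libraries for this gene, without overlap. PGAM1 was 30.5-fold lower in IgG than in input (log2 fold change -4.93, SE 0.12, adjusted p 4.53e-21). LDHA was 8.99-fold lower (log2 fold change -3.17, SE 0.093, adjusted p 2.30e-19). HK2 went the other way, at 63.6 and 52.0 CPM in WT IgG and 12.2, 16.97 and 12.4 CPM in WT IP, and was 2.68-fold higher in IgG than in input (log2 fold change 1.42, SE 0.13, adjusted p 2.80e-10). GPI was the other member that was higher in IgG than in input, at 0.34 (SE 0.054, adjusted p 4.68e-06).

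Against IgG, 3 members were higher in WT IP, where 47.1% of genes were, and 7 were lower, where 34.0% were. The members that were higher were PGAM1 at a log2 fold change of 2.15 (SE 0.12, adjusted p 1.33e-13), LDHA at 0.66 (SE 0.086, adjusted p 2.51e-07) and ALDOA at 0.44 (SE 0.051, adjusted p 3.86e-08), which turned to -0.08 with the GC trend removed. HK2 had the lowest value, -2.08 (SE 0.13, adjusted p 9.43e-13), then GPI at -1.03 (SE 0.054), ENO1 at -0.96 (SE 0.052) and GAPDH at -0.87 (SE 0.055). PGK1, LDHB and TPI1 lay between -0.78 and -0.45. The median log2 fold change was -0.78 for the members and 0.29 for all genes tested.

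The same comparison was made in siTDP43 cells. Of the 10, 8 were lower in IP than in input, against 41.5% of the 12746 genes tested, none was higher, against 37.3%, and 2 were not called. The median log2 fold change was -0.85 for the members and -0.09 for all genes tested. LDHB, at 3471, 3192 and 3099 CPM in IP and 3413, 3379 and 3538 CPM in input, had a log2 fold change of 0.07 (SE 0.048, adjusted p 0.165). The IP libraries of LDHB overlapped the input libraries, and the call ran both ways between processing settings: it passed as lower with scaling by total count (-0.27, adjusted p 2.76e-06) and as higher with the GC trend removed (0.30, adjusted p 4.05e-06). HK2 was at 24.3, 22.6 and 31.5 CPM in IP, which also overlapped the input, with a log2 fold change of 0.20 (SE 0.17, adjusted p 0.278). LDHA and PGAM1 were the most depleted, at -2.14 (SE 0.068) and -1.81 (SE 0.078), with adjusted p of 1.42e-17 and 2.89e-15.

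Against siTDP43 IgG, 3 members were higher, where 44.9% of genes were, 3 were lower, where 28.5% were, and 4 were not called. PGAM1 was higher at a log2 fold change of 1.22 (SE 0.089, adjusted p 1.33e-10), LDHA at 0.72 (SE 0.070, adjusted p 8.77e-09) and PGK1 at 0.61 (SE 0.053, adjusted p 1.46e-09). GPI at -0.76 (SE 0.071), ENO1 at -0.40 (SE 0.049) and GAPDH at -0.39 (SE 0.046) were lower, with adjusted p from 4.87e-09 to 2.32e-07. HK2 at 0.35 (adjusted p 0.135), LDHB at 0.10 (0.0782), TPI1 at 0.05 (0.348) and ALDOA at -0.10 (0.194) did not pass. Single libraries bore on some of these calls. Without siTDP43 IgG replicate 3 HK2 passed at 0.64 (adjusted p 0.0138), without siTDP43 IP replicate 1 ALDOA passed at -0.18 (adjusted p 0.00592), and without siTDP43 IP replicate 3 LDHB passed at 0.12 (adjusted p 0.0472). In siTDP43 IgG over input, 7 members were lower, against 50.3% of genes, and none was higher, against 33.0%. Scaling by total count made all 10 lower, GPI at -0.67, HK2 at -0.70 and LDHB at -0.57 included, as did limma, but also moved all genes, from 4209 higher and 6406 lower to 3221 higher and 7665 lower. With a minimum mean of 50 counts GAPDH lost its call (-0.036, adjusted p 0.476). PGAM1 at -3.03 (SE 0.089) and LDHA at -2.87 (SE 0.073) were the lowest, as in WT.

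**Figure D3:**
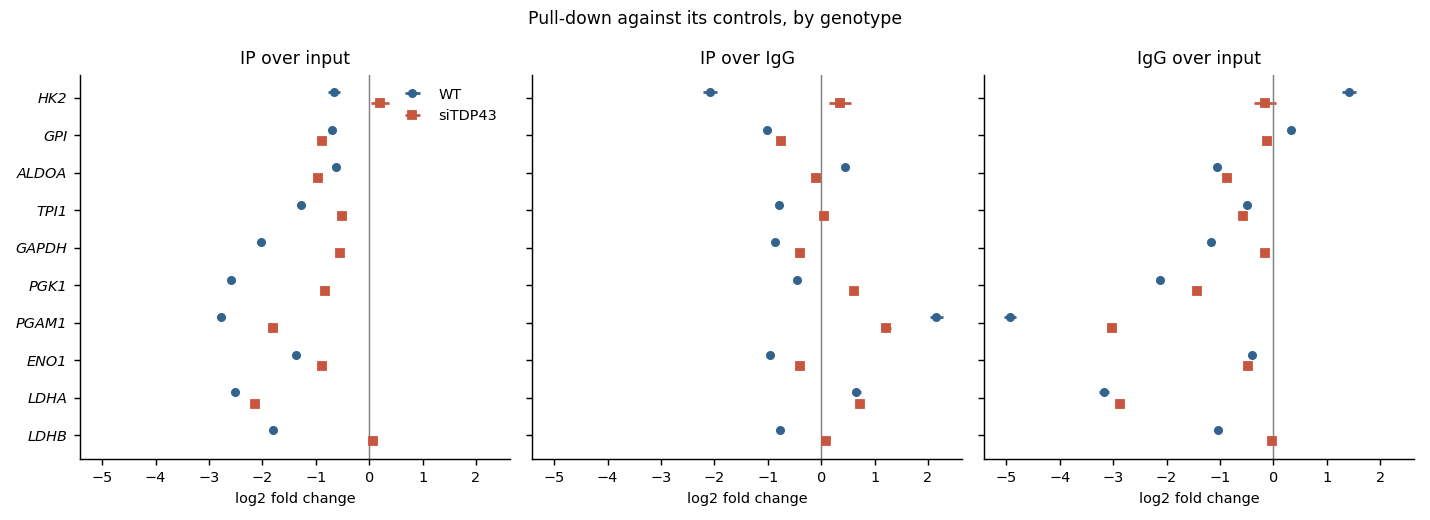
Log2 fold change with bars of 1 SE of IP over input, IP over IgG and IgG over input for the 10 mRNAs, with circles for WT and squares for siTDP43 and the same axis in each panel. All WT values of IP over input lie below 0, and PGAM1 lies above 0 in IP over IgG while being the lowest member in IgG over input.

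Whether the pull-down differed between the genotypes was tested as an interaction over all 17 libraries, the log2 enrichment in siTDP43 minus that in WT. Relative to input, 7 members were higher, against 31.5% of the 15165 genes tested, 2 were lower, against 36.3%, and LDHA was not called. The median change was 0.66 for the members and -0.19 for all genes tested. With limma the split of all genes moved from 4770 higher and 5511 lower to 3654 higher and 7076 lower. Relative to IgG, 7 were again higher, against 34.9% of genes, 2 were lower, against 25.9%, and LDHA was not called, with medians of 0.57 for the members and 0.24 for all genes. Both interactions use the same IP libraries, so they are not independent.

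LDHB had the highest change relative to input. It was at 513, 564 and 559 CPM in WT IP and at 3471, 3192 and 3099 CPM in siTDP43 IP, with no overlap. LDHB also rose in IgG, from 893 and 941 CPM in WT to 2841, 2855 and 2985 CPM in siTDP43. Its change was 1.73 (SE 0.071, edgeR adjusted p 2.79e-22) relative to input and 0.92 (SE 0.075, adjusted p 2.01e-13) relative to IgG. PGK1 was at 205, 200.2 and 191 CPM in WT IP and at 939, 943 and 941 CPM in siTDP43 IP. In IgG PGK1 was at 284.6 and 250.8 CPM in WT and at 598, 574.2 and 583.5 CPM in siTDP43. Its change was 1.61 (SE 0.074, adjusted p 1.07e-20) relative to input and 1.12 (SE 0.081, adjusted p 7.59e-15) relative to IgG. PGK1 was the only member whose call over IgG was opposite in the 2 genotypes, lower in WT and higher in siTDP43. GAPDH rose from 1629, 1524 and 1407 CPM in WT IP to 2859, 2759 and 2819 CPM in siTDP43 IP, while its input fell. In siTDP43 IgG GAPDH was at 3553, 3565 and 3406 CPM, above each of the siTDP43 IP libraries.

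The other members fell into groups by the control used. TPI1 (0.62 relative to input, SE 0.068, and 0.89 relative to IgG, SE 0.072) and ENO1 (0.33, SE 0.069, and 0.61, SE 0.074) were higher by both, although for ENO1 scaling by total count left a change relative to input of 0.03 (adjusted p 0.628). HK2 was higher by 0.71 relative to input (SE 0.21, adjusted p 0.00308) and by 2.48 relative to IgG (SE 0.25, adjusted p 5.34e-11). The WT IgG level of HK2, 63.6 and 52.0 CPM, was above all its other libraries, and scaling by total count took the adjusted p of its change relative to input to 0.086. PGAM1 was higher relative to input, at 0.82 (SE 0.11, adjusted p 3.91e-08), and lower relative to IgG, at -0.88 (SE 0.16, adjusted p 1.16e-05), and GPI went from -0.34 (SE 0.083, adjusted p 0.00053) to 0.32 (SE 0.092, adjusted p 0.0027). For GPI neither call held in all settings, since the adjusted p was 0.0692 relative to input with the GC trend removed and 0.278 relative to IgG in DESeq2. ALDOA alone was lower by both, at -0.50 (SE 0.084, adjusted p 2.71e-06) and -0.48 (SE 0.091, adjusted p 1.46e-05), and turned to 0.24 relative to IgG with the GC trend removed. LDHA had 0.22 relative to input (SE 0.10, adjusted p 0.0535, from 0.00691 to 0.681 over the alternatives) and 0.12 relative to IgG (SE 0.11, adjusted p 0.407). Its value relative to IgG rested on the WT IgG pair: it was -0.10 without WT IgG replicate 1 and 0.31 (adjusted p 0.0186) without WT IgG replicate 2. Its value relative to input passed without WT IP replicate 1 (adjusted p 0.0211), siTDP43 IP replicate 1 (0.0077) or siTDP43 input replicate 3 (0.0471).

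**Figure D4:**
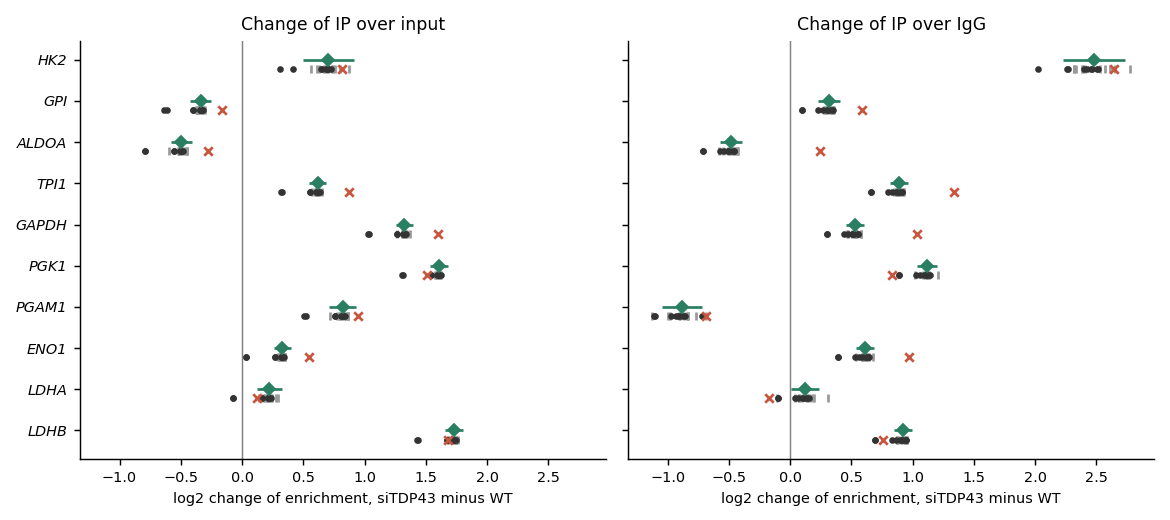
Change of the log2 enrichment, siTDP43 minus WT, relative to input (left) and IgG (right) for the 10 mRNAs. Diamonds with bars of 1 SE are the reported values, grey ticks below them leave out 1 library each, black points are other processing settings and red crosses have the GC trend removed; ALDOA moves from -0.48 to 0.24 relative to IgG under that setting.

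A rule after the study's thresholds for ac4C(+) mRNAs, an IP that exceeds its input and its IgG by over 2-fold each with an adjusted p under 0.05, was applied to the fits on counts. The study also used folds of FPKM with a pseudocount and another test, which were not repeated in that form. It was met by 0 of 10 members in WT, against 15.6% of genes, and by 0 of 10 in siTDP43, against 10.3%, with edgeR. The count was also 0 at an unadjusted p under 0.05, with DESeq2 and with limma on log2(FPKM + 1). With IgG as the only control PGAM1 passed in both genotypes, where 35.2% of genes in WT and 34.0% in siTDP43 did. A stricter rule, more than 5-fold over IgG and more than 2-fold over input, each with an adjusted p under 0.05, was met by 0 members, against 10.5% of genes in WT and 6.99% in siTDP43.

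The ratio of LDHA to LDHB counts within a library does not depend on how libraries are scaled. It was 0.983, 0.948 and 0.966 in WT input and 0.894, 0.941 and 0.933 in siTDP43 input. It was 0.678, 0.589 and 0.510 in WT IP and 0.257 and 0.184 in WT IgG. In siTDP43 it was 0.168, 0.209 and 0.222 in IP and 0.137, 0.122 and 0.127 in IgG. LDHA was thus counted slightly less than LDHB in every input library, and less still in every pull-down library, IgG included. Per kilobase of exon the ratio was 0.616, 0.594 and 0.605 in WT input and 0.560, 0.590 and 0.585 in siTDP43 input. The groups did not overlap in any of the 7 comparisons made. The exact two-sided permutation p was 0.1 with 3 libraries against 3 and 0.2 with 3 against 2, the smallest these numbers allow, and 0.14 and 0.2 after Benjamini-Hochberg adjustment over the 7. LDHA exons had a GC content of 45.6% and LDHB exons 47.3%, and the part of other sequence properties was not tested.

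**Figure D5:**
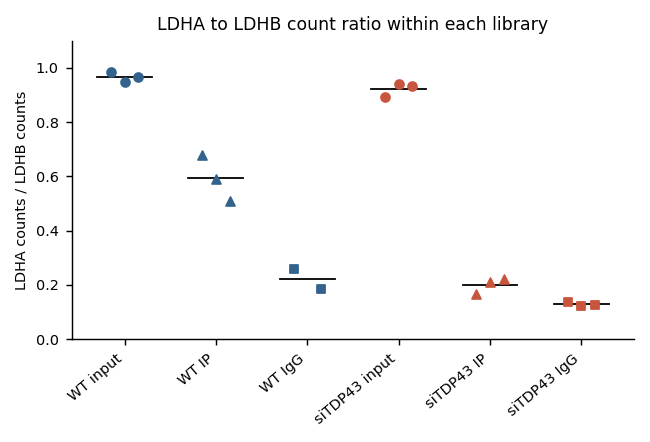
Ratio of LDHA to LDHB counts in each of the 17 libraries, with a line at each group mean, circles for input, triangles for IP and squares for IgG, blue for WT and red for siTDP43. The inputs lie between 0.894 and 0.983 and all pull-down libraries at or below 0.678.

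Across the 6 group means of log2 CPM, the members differed in how close they were to the mean of the others. PGK1 (Pearson r 0.961), TPI1 (0.925) and LDHA (0.914) were closest, and ALDOA (0.355), HK2 (-0.07) and GPI (-0.11) were farthest. Outside the members, 4473 genes had at least 10 CPM in every group, and the 5 most like the mean profile were SIRT2 (0.997), CCT5 (0.995), UBE2N (0.995), TMEM126B (0.994) and C1QBP (0.994). These are descriptions over 6 points that share libraries.

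Reads of near copies could bear on some members. The annotation names 65 pseudogenes of GAPDH, 13 of PGAM1, 6 of LDHA and at most 4 of each other member, and reads that matched more than 1 place had been left out by the authors, and how many reads each member lost in this way was not tested. PGAM4, a near copy of PGAM1, held at most 50 counts in an input library. The few pseudogene or antisense rows of members in the table were low: TPI1P2 reached 34 counts, TPI1P3 6 counts and ENO1-AS1, antisense to ENO1, 32 counts, at most 0.0449% of the member's count. ENO1 shares 126 bases with ENO1-AS1 and TPI1 11 bases with SPSB2 on the opposite strand, and without a stated strand setting such reads cannot be told apart.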

How the data were processed

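Poly(A) RNA of HEK293T cells was profiled in 17 libraries. Per the study's methods, input, IP and IgG RNA were all amplified by Smart-seq2. Input RNA was diluted first, and IP and IgG RNA was too scarce to be quantified. The authors trimmed reads with Trim Galore 0.6.7 and aligned them to hg19 with STAR 2.7.10a. Uniquely mapped reads per gene were counted with featureCounts 2.0.2. The deposited values are raw counts per gene with no normalization. Annotation release, strand setting and treatment of mates are not given in the sources used here. Counts between 1 and 20 were even in 81.3 to 95.9% of cases. No molecular identifiers were used, so tests cover counting error and library spread, and the β-globin spike-in was not used here. A further label lists a mouse build, which was set aside.

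Groups came from the labels. The members and lists were chosen with earlier results of these data known. Tests used edgeR 4.0.16 under R 4.3.3 (quasi-likelihood F test, TMM, filterByExpr with a minimum count of 10, Benjamini-Hochberg over all genes tested), with 6 libraries for the inputs, 8 for WT, 9 for siTDP43 and 17 for the interactions. CPM were counts over the TMM effective library size of all 17 libraries, and overlap between libraries was judged on CPM. The SE of an edgeR value was the absolute log2 fold change divided by the square root of its F statistic. Exons, GC content and motifs were read from GRCh37 at the positions in the table. Genes of the lists were named from the up to 3 highest and 3 lowest that passed the test and averaged 100 or more counts, and 5 genes as most alike by correlation.

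Alternatives were limma 3.58.1 on log2(FPKM + 1), halved counts, DESeq2 1.42.0 with its Wald test or with only its size factors taken into edgeR, scaling by total count, omission of the low-count filter, a minimum mean of 50 counts, removal of a GC trend (loess span 0.5), the replicate number as a block, other sets of libraries, and each library left out. Replicates were not duplicates (chi-square per degree of freedom 3.26 to 9.43). On simulated data with 200 changed genes, 79 to 100% of 2-fold changes were recovered over the 9 comparisons, the lowest in the change of IP over IgG, and 1.48 to 6.54% of calls were false. The changed genes were drawn from those with many counts, all others were equal between groups, and every gene had the same dispersion. In the inputs 38.6% of genes tested were higher and 40.6% lower, so the simulation was unlike the data and these rates may not hold for the fits.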

Additional observations from a re-analysis of the deposited data

Results flagged for a closer look

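For 9 of the 10 enzymes the enrichment differed between siTDP43 and WT by a direct test of the difference, relative to each control. Relative to input the log2 changes were 1.73 for LDHB, 1.61 for PGK1, 1.33 for GAPDH, 0.82 for PGAM1, 0.71 for HK2, 0.62 for TPI1, 0.33 for ENO1, -0.34 for GPI and -0.50 for ALDOA. Relative to IgG they were 2.48 for HK2, 1.12 for PGK1, 0.92 for LDHB, 0.89 for TPI1, 0.61 for ENO1, 0.53 for GAPDH, 0.32 for GPI, -0.48 for ALDOA and -0.88 for PGAM1. PGAM1 and GPI changed sign with the control. Such differences were common: 31.5% of all genes were higher and 36.3% lower relative to input, and 34.9% and 25.9% relative to IgG.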

How the results depend on the processing

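Directions and calls of single members held in most alternatives, but less often when the scaling changed. With 1 library left out, 620 of 630 values kept their direction and their call, 9 changed the call and 1 the direction. The replicate block kept 89 of 90, with LDHA passing in the change of IP over input at 0.22 (edgeR adjusted p 0.0468). It was tried because groups share replicate numbers, which did not pair the libraries (residual correlations -0.021 to 0.026). Scaling by total count and limma kept 76 of 90 each, and removal of the GC trend kept 80 of 90. Removing the GC trend turned ALDOA to 0.18 in the inputs, -0.081 in WT IP over IgG, 0.17 in siTDP43 IP over IgG and 0.24 in the change of IP over IgG, LDHB in siTDP43 IgG over input to 0.24 and LDHA in the change of IP over IgG to -0.17. It gave 1 higher member in siTDP43 IP over input and 1 in siTDP43 IgG over input, 5 in siTDP43 IP over IgG, and 1 lower member in each interaction. The other turns were in values that had not passed at first, of which LDHB in siTDP43 IP over input then passed as lower by total count scaling and limma. Scaling by total count and limma gave ALDOA 0.11 in siTDP43 IP over IgG, LDHA -0.071 and -0.073 in the change of IP over input, LDHB -0.27 and -0.26 and HK2 -0.14 and -0.11 in siTDP43 IP over input, and 6 higher members in siTDP43 IP over IgG, where 6502 and 6494 of 12746 genes were then higher in place of 5725. For LDHB in siTDP43 IP over input, DESeq2's test and size factors gave -0.0047 and -0.0049 and 1 fit of all 17 libraries -0.082; that fit gave 5 higher members in siTDP43 IP over IgG. Both DESeq2 settings gave LDHA -0.10 in the change of IP over IgG, and leaving out 1 library gave -0.10 to 0.31. A mean of at least 50 counts gave LDHB 0.10 and GPI 0.009 in siTDP43 IgG over input and 1 higher member in siTDP43 IP over input. With IgG as the only control 1 member was ac4C(+) in each genotype. Total count scaling moved the median of all genes by -0.55 in siTDP43 IgG over input, -0.34 in siTDP43 IP over input and -0.29 in the change of IP over input, DESeq2's test moved it by -0.37 in the change of IP over IgG (5432 genes lower in place of 3923), and omitting the low-count filter by -0.73 in siTDP43 IgG over input. The causes were not tested. HK2 in siTDP43 IgG and PGAM1 in WT IgG had the fewest counts of the members, and the enrichment is relative within each library.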

Other observations

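Metabolic neighbours of glycolysis were also counted. Of 23 genes of pyruvate entry and the TCA cycle, all tested, 18 were higher and 4 lower in siTDP43 input (median log2 fold change 0.47; 38.6% of all genes higher and 40.6% lower), and in WT IP over input 22 were lower and none higher (median -1.80; 42.1% of all genes lower and 42.3% higher). Of 9 pentose phosphate genes, 2 were higher and 4 lower in siTDP43 input, to be read against the same 38.6% and 40.6%. Of 7 gluconeogenesis genes, 6 were tested, 2 were higher and 3 lower.

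GAPDH is a common reference for relative quantities, and it fell in siTDP43 input, so TARDBP was also expressed per GAPDH count, a measure chosen after seeing the data. TARDBP had 24.1, 24.9 and 24.4 counts per 1000 GAPDH counts in WT input and 20.9, 22.5 and 23.4 in siTDP43 input. The groups did not overlap, and the siTDP43 ratio was 90.8% of WT (log2 difference -0.14, exact two-sided permutation p 0.1, the smallest that 3 against 3 allow), beside 67.2% by CPM. Per 1000 counts of the 10 enzymes together, TARDBP had 7.69, 7.99 and 7.78 counts in WT input and 4.30, 4.503 and 4.66 in siTDP43 input.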
